A study of Mus musculus with 12 samples.

Results

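The comparison R1CR-R1AL set cortical astrocytes of SAMR1 mice given serum of calorie-restricted rats (SAMR1-CR) against the same kind of culture given serum of rats fed ad libitum (SAMR1-AL). It holds 6 of the 12 samples of the series, chosen by their titles, with 3 samples in each serum. Every culture was prepared from mice aged 2 days, was 21 days old in culture and received 10% rat serum for 48 h. SAMR1 is a senescence-resistant mouse strain, and the other 6 samples come from SAMP8, a strain with accelerated senescence, under the same 2 sera. The labels describe the cultures as mainly astrocytes with a minority of microglia and few oligodendroglial cells, so a level is that of the mixed culture. In such bulk RNA, fewer cells of a type and less RNA per cell cannot be told apart. The serum donors were rats and the cells were from mouse pups, so the model tests circulating factors of the diet and not the diet itself. The question of the comparison was what these factors do to the transcripts of astrocytes that do not age early.

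Caloric restriction lowers circulating insulin and insulin-like growth factor 1. In many cells a weaker signal from their receptors lets FoxO transcription factors enter the nucleus and slows protein synthesis and division through mTOR. Astrocytes feed and protect neurons, buffer glutamate and potassium, supply antioxidants, and secrete matrix proteins and growth factors that act on blood vessels and synapses.

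RNA was hybridised to Illumina bead arrays of 24613 probes, of which between 43.02% and 45.46% were detected in SAMR1-CR samples and between 41.25% and 43.57% in SAMR1-AL samples. The 90th percentile of intensity was 7.716, 5.871 and 5.086 times the lowest detected intensity in SAMR1-CR replicates 1, 2 and 3, against 7.838, 5.115 and 4.683 times in SAMR1-AL replicates 1, 2 and 3. Replicate 1 of each serum thus had the widest range. The number of arrays limits the precision, since the median SD within a serum was 0.213 and the median SE of a fold change 0.189, both on the log2 scale. The 2 samples most alike were of different sera. SAMR1-CR replicate 2 and SAMR1-AL replicate 3 correlated at r = 0.9922 across probes and differed by an SD of 0.186, and among the 66 pairs of the whole series no other pair had a higher r. The SD between samples of the same serum was 0.368 to 0.406 in SAMR1-CR and 0.358 to 0.4045 in SAMR1-AL. Samples of different sera with the same replicate number differed less, by SDs of 0.277, 0.326 and 0.338 for replicates 1, 2 and 3. On the first principal component, with 43.4% of the variance, the SAMR1-CR samples lay at -23.5, 14.8 and -2.10, and the SAMR1-AL samples at -16.0, 6.995 and 19.8, so the sera overlapped. Nothing in the labels sets either sample of the alike pair apart, and the results that rest on them are given with and without them.

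**Figure D1:**
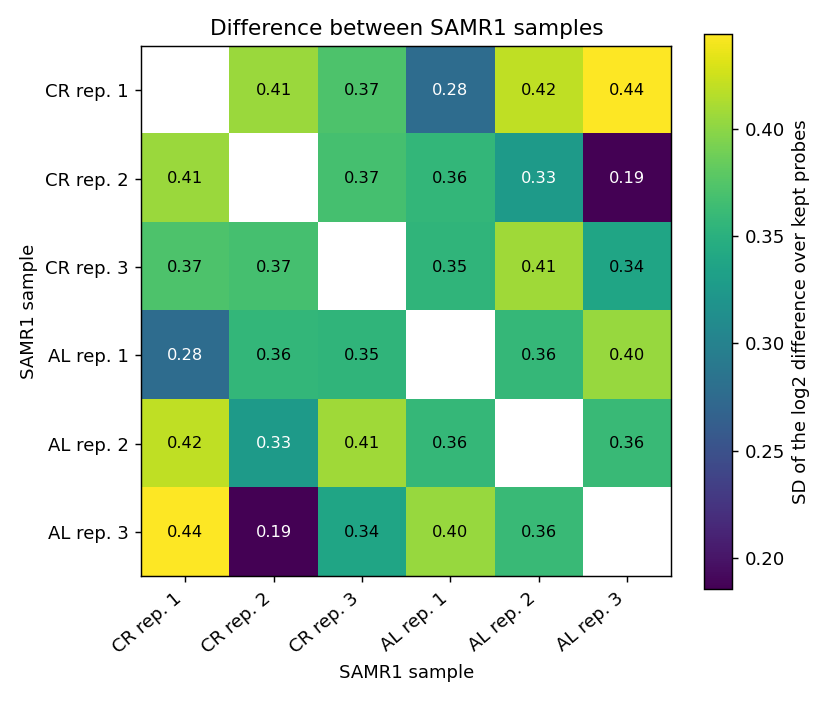
Differences between the 6 SAMR1 samples, as the SD of the log2 difference over the kept probes; rows and columns are samples. The darkest pair, at 0.19, joins SAMR1-CR replicate 2 with SAMR1-AL replicate 3, and pairs within a serum lie between 0.36 and 0.41.

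Over 10063 probes kept, no probe passed an adjusted p of 0.05 between SAMR1-CR and SAMR1-AL (limma with Benjamini-Hochberg adjustment, smallest adjusted p 0.999), which is 0% of the 7551 genes tested. At an unadjusted p under 0.05 there were 107 genes higher with CR serum (1.42%) and 12 lower (0.159%). Every SAMR1-CR sample lay above every SAMR1-AL sample in 177 genes (2.34%) and below in 107 genes (1.42%). These 177 and 107 genes were 149 and 161 after quantile normalization and 136 and 21 with median centring. Over all genes the median log2 fold change was 0.005, with 3889 genes higher and 3662 lower, and 9 probes differed by more than 1 on the log2 scale. By probes, 176 were higher and 15 lower at that unadjusted threshold, against 154 higher and 35 lower after quantile normalization, and 147 and 36 after background correction and quantile normalization. With median centring in place of the Z scale, 4951 genes were higher and 2600 lower. The count of 191 probes rested on single samples, being 720, 104 and 143 when SAMR1-CR replicate 2, 1 or 3 was left out, and 456, 312 and 60 when SAMR1-AL replicate 3, 1 or 2 was left out. Without both samples of the alike pair it was 761, of which 1 passed the adjusted threshold, and 1 passed as well without SAMR1-AL replicate 3 alone. No gene named in the following passed the adjusted threshold in the 6 samples, so the values describe these cultures.

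Genes of the extracellular matrix were among the largest differences, and most of the collagens measured were higher with CR serum. Collagens are the triple-helical proteins that give tissue its strength, with fibrillar, basement membrane and short-chain classes. Of 13 collagen genes tested, 11 were higher and 2 lower, with a median log2 fold change of 0.26, beside 51.5% higher and 0.005 over all genes. In 3 of them, 23.1%, the sera did not overlap with CR above, beside 2.34% of all genes. The median was 0.11 and 0.33 when SAMR1-CR replicate 1 or 2 was left out, and 0.10 and 0.17 when SAMR1-AL replicate 2 or 3 was left out. *Col8a1*, a short-chain collagen of vessel walls, had normalized log2 levels, counted from the mean of each array, of 3.47, 2.91 and 3.58 in SAMR1-CR samples and of 2.57, 2.06 and 2.87 in SAMR1-AL samples. The lowest SAMR1-CR sample, replicate 2, lay just above the highest SAMR1-AL sample, replicate 3, which is the alike pair. *Col8a1* was 1.76-fold higher with CR serum (log2 fold change 0.82 ± 0.25 SE, unadjusted p = 0.0068), and 1.21 higher on the log2 scale without the alike pair. *Col4a5*, a chain of basement membrane collagen, had levels of 2.27, 1.47 and 1.62 in SAMR1-CR samples, against 1.16, 1.29 and 1.10 in SAMR1-AL samples. Its log2 fold change was 0.61 ± 0.22, and 0.36 without SAMR1-CR replicate 1, the highest sample. *Col1a1*, a chain of fibrillar type I collagen, had levels of 3.26, 2.47 and 2.75 in SAMR1-CR samples and of 2.06, 2.38 and 2.34 in SAMR1-AL samples, a log2 fold change of 0.56 ± 0.22 that came to 0.35 without SAMR1-CR replicate 1. The other basement membrane chains *Col4a1* and *Col4a2* and fibrillar *Col3a1* were higher by 0.26, 0.29 and 0.27 on the log2 scale, each with overlapping sera.

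**Figure D2:**
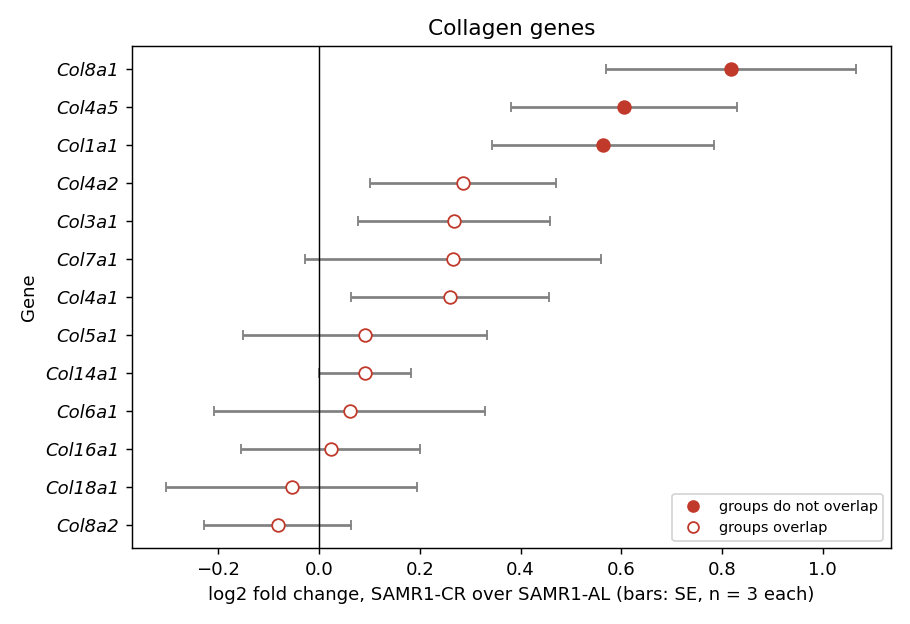
Log2 fold changes of the 13 collagen genes tested, SAMR1-CR over SAMR1-AL, with SE bars. The 3 genes whose sera do not overlap, *Col8a1*, *Col4a5* and *Col1a1*, have the 3 highest values, 0.82, 0.61 and 0.56, and 2 of the 13 lie below 0.

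Promoters of collagens whose sera did not overlap are shown because these genes share a gene family and a direction. Those of *Col8a1* and *Col4a5* are given, from RefSeq on GRCm38.p6, and that of *Col1a1* was not in the promoter set used. The sequences are the 250 bases before the transcription start, 5′ to 3′ on the strand of the gene, and the capitals mark GC boxes (GGGCGG) and CCAAT boxes (CCAAT) on either strand. *Col8a1* lies on the minus strand at chr16:57754738-57754987 and *Col4a5* on the plus strand at chrX:141475169-141475418.
Col8a1: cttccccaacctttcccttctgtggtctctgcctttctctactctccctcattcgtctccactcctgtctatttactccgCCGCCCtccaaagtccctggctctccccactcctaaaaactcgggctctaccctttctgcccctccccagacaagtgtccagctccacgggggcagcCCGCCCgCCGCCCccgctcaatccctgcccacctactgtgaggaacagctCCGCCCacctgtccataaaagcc
Col4a5: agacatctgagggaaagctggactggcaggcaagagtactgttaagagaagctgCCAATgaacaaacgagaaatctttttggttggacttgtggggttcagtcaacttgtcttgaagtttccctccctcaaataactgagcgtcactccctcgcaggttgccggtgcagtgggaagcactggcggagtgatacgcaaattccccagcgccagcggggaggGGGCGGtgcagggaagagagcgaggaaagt
*Col8a1* holds 4 GC boxes, the nearest starting 23 bases before the start, and *Col4a5* holds 1 GC box and 1 CCAAT box. Of 27025 promoters of this length, 32.9% hold a GC box and 34.5% a CCAAT box. The TATA box TATAAA (in 13% of promoters), the AP-1 letters TGAGTCA (4.43%), the FoxO letters GTAAACA (3.09%) and the E-box CACGTG (6.05%), searched on both strands, are not in these 2 windows.

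Some other secreted matrix genes were also higher with CR serum, *Mgp* by more than any collagen tested but with a wider spread. *Mgp*, an inhibitor of calcification in vessel walls and cartilage, had levels of 2.59, 0.82 and 1.86 in SAMR1-CR samples, against 1.76, 0.08 and 0.46 in SAMR1-AL samples. Replicate 1 was the highest sample of both sera, so the sera overlapped although each SAMR1-CR sample lay above the SAMR1-AL sample of its number, and *Mgp* was 1.98-fold higher with CR serum (log2 fold change 0.99 ± 0.46, unadjusted p = 0.054), or 0.57 higher on the log2 scale without SAMR1-CR replicate 1. *Thbs1*, a thrombospondin that astrocytes secrete and that promotes synapse formation, had levels of 0.41, 0.30 and 1.63 in SAMR1-CR samples and of -0.03, -0.38 and 0.50 in SAMR1-AL samples. Its log2 fold change was 0.75 ± 0.33, and 0.33 without SAMR1-CR replicate 3. *Mmp2*, a gelatinase that degrades basement membrane collagen, was higher by 0.55 ± 0.27 with overlap, and by 0.27 without SAMR1-CR replicate 1. *Adamts5*, an enzyme that cleaves proteoglycans, had levels of 0.61, 0.19 and 0.20 in SAMR1-CR samples, all above the 0.17, -0.06 and -0.03 of SAMR1-AL samples, a log2 fold change of 0.30 ± 0.16 that was 0.17 without SAMR1-CR replicate 1. Of 17 matrix proteases and their inhibitors 10 were higher and 7 lower, with a median of 0.12, and it was -0.03 without SAMR1-AL replicate 1. The largest fall of this list was that of *Serpinh1*, at -0.45 ± 0.31 with overlap. Fibroblasts and meninges also make collagens. Of 7 of their markers tested 6 were higher, with a median of 0.13, and without the collagens *Col1a1* and *Col3a1* 4 of 5 were higher, with a median of 0.04. The summed raw intensity of the markers, not scaled between arrays, ranged between 10748.9 and 20701.1 in SAMR1-CR samples and between 9336.4 and 18187.3 in SAMR1-AL samples. The marker *Igfbp2* alone gave 7993.8 to 13877.1 of it in SAMR1-CR samples and 7117.8 to 13909.6 in SAMR1-AL samples. The part of such cells in the collagen values was not tested.

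Genes that act on blood vessels were mostly higher with CR serum by small amounts. Of 15 angiogenic factors and their receptors tested, 13 were higher and 2 lower, with a median log2 fold change of 0.16, and in 3 (20%) the sera did not overlap with CR above, beside 2.34% of all genes. The median lay between 0.08 and 0.19 when 1 sample was left out. *Pdgfa*, the A chain of platelet-derived growth factor, had levels of 1.90, 1.61 and 1.46 in SAMR1-CR samples and of 1.37, 1.11 and 1.12 in SAMR1-AL samples. All SAMR1-CR samples were above, at 1.37-fold (log2 fold change 0.45 ± 0.19, unadjusted p = 0.036). The other 2 without overlap were receptors, *Pdgfrb* for platelet-derived growth factor at 0.13 ± 0.17 and *Eng*, a co-receptor for TGF-beta, at 0.14 ± 0.09, and without SAMR1-CR replicate 1 they stood at 0.08 and 0.09. Of 6 endothelial markers 4 were detected on no array, among them *Pecam1* and *Cldn5*. *Flt1* was detected in all samples, and *Cdh5* in 3 of 3 SAMR1-CR and 2 of 3 SAMR1-AL samples. These 2 were higher with CR serum, by 0.23 and 0.25 on the log2 scale, with overlapping sera.

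The other 7 of the 10 genes with the largest difference and CR above are in none of the gene lists used here. *Cyp26b1*, which degrades retinoic acid, had levels of 2.46, 1.71 and 2.57 in SAMR1-CR samples and of 1.48, 1.30 and 1.59 in SAMR1-AL samples, 1.73-fold higher (log2 fold change 0.79 ± 0.23, unadjusted p = 0.0058). *Exoc4*, a subunit of the exocyst that tethers vesicles to the cell membrane, had levels of 2.04, 1.63 and 2.32 in SAMR1-CR samples, against 1.32, 0.45 and 1.62 in SAMR1-AL samples. Its lowest SAMR1-CR sample, replicate 2, lay just above its highest SAMR1-AL sample, replicate 3, and its log2 fold change was 0.87 ± 0.29. For *Reep3*, a protein that shapes the endoplasmic reticulum, the levels were 2.90, 2.46 and 2.59 in SAMR1-CR samples and 2.16, 0.66 and 2.37 in SAMR1-AL samples. *Ro60*, which binds misfolded small RNAs, had levels of 1.54, 1.32 and 1.45 in SAMR1-CR samples and of 0.77, -0.16 and 1.26 in SAMR1-AL samples. In both genes SAMR1-AL replicate 2 lay far below the other samples of its serum. Their log2 fold changes of 0.92 ± 0.37 and 0.81 ± 0.30 came to 0.39 and 0.42 without that sample. The same sample was the lowest of all 6 for *Exoc4*, for *Sppl2a*, an intramembrane protease, for *Setd1b*, a histone H3 methyltransferase, and for *Cdc14b*, a phosphatase. These 4 had log2 fold changes of 0.87, 0.75, 0.56 and 0.61 with all samples, and of 0.53, 0.39, 0.31 and 0.31 without SAMR1-AL replicate 2.

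**Figure D3:**
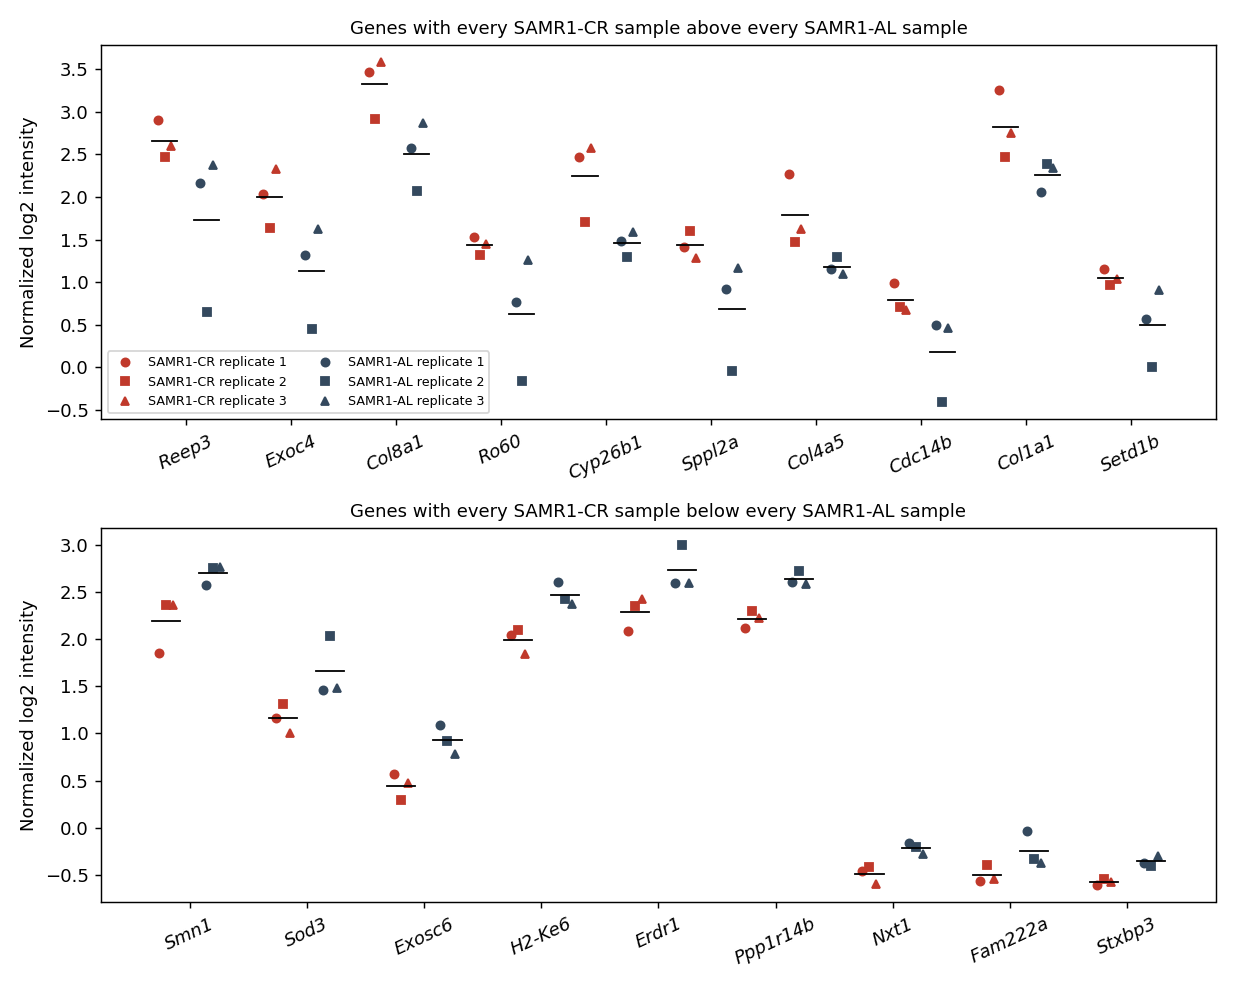
Normalized log2 intensity of the genes with an unadjusted p under 0.05 and no overlap, the 10 with the largest positive difference in the upper panel and the 9 with a negative difference in the lower; points are samples, bars are group means. SAMR1-AL replicate 2 is the lowest point of *Reep3*, *Exoc4*, *Ro60*, *Sppl2a*, *Cdc14b*, *Setd1b*, *Col8a1* and *Cyp26b1*, but not of *Col4a5* or *Col1a1*.

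*Pbxip1*, a partner of PBX homeodomain proteins, had the largest fold among the named genes at 2.25 times, with levels of 3.47, 2.02 and 3.19 in SAMR1-CR samples and of 2.53, 0.96 and 1.68 in SAMR1-AL samples. SAMR1-CR replicate 2 lay below SAMR1-AL replicate 1, so the sera overlapped, and the log2 fold change was 1.17 ± 0.41 (unadjusted p = 0.015). *Klf6*, an immediate early zinc finger factor, was 2.04-fold higher, with levels of 2.47, 1.83 and 1.98 in SAMR1-CR samples and of 0.90, 0.32 and 1.96 in SAMR1-AL samples. Only SAMR1-AL replicate 3 reached the level of the SAMR1-CR samples, and the log2 fold change of 1.03 was 1.48 without it and 0.66 without SAMR1-AL replicate 2. A second kept probe of *Klf6*, detected in 1 of 3 SAMR1-AL samples, was higher by 0.29 ± 0.17. *Larp4b*, an RNA-binding protein, and *Fam180a* were detected in 3 of 3 SAMR1-CR samples and in 0 of 3 SAMR1-AL samples. Against the lowest detected signal of each array they were at least 1.18-fold and at least 1.19-fold higher with CR serum.

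The genes with the clearest separation and CR below were few, 9 in all at an unadjusted p under 0.05, and their differences were smaller. *Sod3*, the extracellular superoxide dismutase, had levels of 1.16, 1.31 and 1.01 in SAMR1-CR samples and of 1.46, 2.03 and 1.48 in SAMR1-AL samples, a log2 fold change of -0.50 ± 0.21. SAMR1-AL replicate 2 was its highest sample, and the value was -0.31 without it. *Smn1*, which assembles the RNA-protein particles of the spliceosome, had levels of 1.85, 2.36 and 2.36 in SAMR1-CR samples and of 2.58, 2.75 and 2.77 in SAMR1-AL samples (log2 fold change -0.51 ± 0.19). *Exosc6*, a subunit of the RNA-degrading exosome, had levels of 0.57, 0.30 and 0.48 in SAMR1-CR samples, against 1.08, 0.92 and 0.79 in SAMR1-AL samples (-0.48 ± 0.18). *Nxt1*, a cofactor of mRNA export, differed by -0.27 ± 0.09 with levels near the detection limit. *H2-Ke6*, an enzyme of mitochondrial fatty acid synthesis, *Ppp1r14b*, an inhibitor of protein phosphatase 1, and *Erdr1* had log2 fold changes of -0.48, -0.42 and -0.45. Without 1 sample they lay between -0.53 and -0.40, between -0.46 and -0.38 and between -0.51 and -0.31. A second kept probe of *Erdr1*, detected in all 6 samples, differed by only -0.16 ± 0.22, with overlap. The second kept probe of *Exosc6* differed by -0.13 ± 0.08. *Fam222a*, of no role given here, differed by -0.26 and was detected in 1 of 3 SAMR1-CR samples. *Stxbp3*, which regulates vesicle fusion, was detected in 0 of 3 SAMR1-CR samples and 3 of 3 SAMR1-AL samples, at least 1.10-fold lower with CR serum. With overlap, *Cytip*, a regulator of leukocyte adhesion, had levels of 0.16, 0.82 and 0.18 in SAMR1-CR samples and of 0.74, 1.39 and 0.75 in SAMR1-AL samples (-0.57 ± 0.25), and *Vtn*, the matrix and plasma protein vitronectin, differed by -0.28 ± 0.14. *Vtn* was detected in 1 of 3 SAMR1-CR samples and in 3 of 3 SAMR1-AL samples.

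Antioxidant enzymes, which remove superoxide and peroxides, were mostly slightly lower with CR serum. Of 26 tested, 7 were higher and 19 lower, with a median log2 fold change of -0.08, which was 0.01 with median centring. The sera did not overlap with CR below in 2 of them, 7.69% beside 1.42% of all genes. The largest difference of the list was a rise, that of the glutathione peroxidase *Gpx3* at 0.76 ± 0.43 with overlap. Its level was 3.70 in SAMR1-CR replicate 3 and between 1.53 and 2.70 in the other samples. The cytosolic and mitochondrial superoxide dismutases *Sod1* and *Sod2* had log2 fold changes of -0.23 ± 0.20 and -0.24 ± 0.20, with overlapping samples. Without SAMR1-AL replicate 1 *Sod1* stood at -0.14, and without SAMR1-CR replicate 1 *Sod2* stood at -0.08. *Nqo1*, a quinone reductase induced by oxidants, had the second smallest p of the list after *Sod3*, with levels of 0.23, -0.36 and -0.06 in SAMR1-CR samples and of -0.30, -0.25 and -0.47 in SAMR1-AL samples, higher by 0.28 ± 0.14, or by 0.13 without SAMR1-CR replicate 1. It was detected in 3 of 3 SAMR1-CR samples and in 2 of 3 SAMR1-AL samples.

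In the insulin and insulin-like growth factor pathway the differences were small in both directions. Of 20 genes tested 12 were higher and 8 lower, with a median of 0.05. The receptor *Igf1r* had levels of 0.30, 0.26 and 0.63 in SAMR1-CR samples, all above the 0.18, 0.17 and 0.20 of SAMR1-AL samples (log2 fold change 0.22 ± 0.16, and 0.10 without SAMR1-CR replicate 3). *Gsk3b*, a kinase held back by insulin, had levels of 0.50, 0.48 and 0.53 in SAMR1-CR samples and of -0.03, 0.14 and 0.47 in SAMR1-AL samples, also without overlap, and was higher by 0.31 ± 0.17, or by 0.20 without SAMR1-AL replicate 1. *Igf1r* and *Gsk3b* made up 10% of the list, beside 2.34% of all genes with CR above. *Pdpk1*, the kinase that activates AKT, was higher by 0.35 ± 0.22 with overlap and by 0.14 without SAMR1-AL replicate 2. Targets of FoxO factors and of fasting were higher in 15 of 18 genes, with a median of 0.17 that came to 0.06 without SAMR1-CR replicate 1 and to 0.25 without SAMR1-CR replicate 2. In none of the 18 were the sera apart, beside 2.34% of all genes with CR above and 1.42% with CR below. The members with the smallest p were *Bcl6*, a transcriptional repressor, at 0.31 ± 0.21, and *Sesn3*, a brake on mTOR, at 0.25 ± 0.16. *Bcl6* came to 0.15 without SAMR1-CR replicate 3, and *Sesn3* to 0.13 without SAMR1-AL replicate 3. Immediate early genes, switched on by growth factors within minutes, were higher in 14 of 16, with a median of 0.12. Besides *Klf6* the smallest p was that of *Egr3*, at 0.11 ± 0.08 with levels near the detection limit. Feedback inhibitors of MAP kinases, which such signals induce, were higher in 6 of 7 with a median of 0.10. *Dusp4*, a phosphatase of ERK, had levels of -0.03, 0.08 and 0.28 in SAMR1-CR samples and of -0.27, -0.10 and -0.07 in SAMR1-AL samples, without overlap (0.26 ± 0.13). *Spred1*, an inhibitor of the RAS pathway, did not overlap either (0.17 ± 0.13), so that 28.6% of the list lay apart with CR above, beside 2.34% of all genes, while *Dusp6* was higher by 0.33 ± 0.23 with overlap.

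Genes of protein synthesis were mostly lower with CR serum, by amounts that moved with single samples and with the scaling. Of 45 cytosolic ribosomal protein genes 43 were lower and 2 higher, with a median log2 fold change of -0.20 that was -0.31 and -0.07 when SAMR1-CR replicate 2 or 3 was left out, and -0.35, -0.13 and -0.10 when SAMR1-AL replicate 1, 2 or 3 was left out. With median centring it was -0.03, with 26 lower and 19 higher. As the median deviation of the members from their own means, the list stood at -0.07, 0.22 and -0.35 in SAMR1-CR samples and at -0.13, 0.25 and 0.16 in SAMR1-AL samples, so that SAMR1-CR replicate 3 lay lowest and both replicates 2 lay highest. The sera did not overlap with CR below in 3 members, 6.67% beside 1.42% of all genes. *Rps15*, 1 of these 3, had levels of 3.65, 3.53 and 3.54 in SAMR1-CR samples and of 3.76, 4.13 and 3.79 in SAMR1-AL samples (-0.32 ± 0.20, and -0.20 without SAMR1-AL replicate 2). *Rpl36* had levels of 3.14, 3.61 and 3.28 in SAMR1-CR samples and of 3.54, 4.18 and 3.57 in SAMR1-AL samples (-0.42 ± 0.23, and -0.21 without SAMR1-AL replicate 2). *Rps15a*, with the smallest p of the list, was higher, by 0.21 ± 0.09 at levels near the detection limit. Mitochondrial ribosomal protein genes were lower in 51 of 65, with a median of -0.09 that was 0.02 without SAMR1-CR replicate 3. Their members with the smallest p went in opposite directions, *Mrpl19* at 0.39 ± 0.24 and *Mrpl28* at -0.34 ± 0.25, and without SAMR1-AL replicate 2 they stood at 0.14 and -0.20.

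Subunits of the respiratory chain and ATP synthase, which make ATP in mitochondria, were lower in 43 of 62, with a median of -0.08 that was 0.02 with median centring. Without 1 sample it lay between -0.16, without SAMR1-CR replicate 1, and 0.06, without SAMR1-CR replicate 3. In 3 (4.84%) the sera did not overlap with CR below, beside 1.42% of all genes. They were *Cox8a* and *Cox5a* of complex IV, at -0.29 ± 0.25 and -0.22 ± 0.21, and *Atp5pb* of ATP synthase, at -0.18 ± 0.19. *Cox8a* stood at -0.14 without SAMR1-AL replicate 2, and *Atp5pb* at -0.05 without SAMR1-CR replicate 3. *Uqcrc1*, a core protein of complex III, had levels of 3.79, 3.83 and 4.15 in SAMR1-CR samples and of 4.34, 4.39 and 4.00 in SAMR1-AL samples (-0.32 ± 0.22).

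Genes of cell division were mostly lower with CR serum, with SAMR1-CR replicate 3 lowest. All 19 mitosis genes tested, such as the kinase *Aurkb* at -0.34 ± 0.21 and the ubiquitin-conjugating enzyme *Ube2c* at -0.32 ± 0.15, had negative log2 fold changes, with a median of -0.20. *Ube2c* was detected in 1 of 3 SAMR1-CR samples and *Aurkb* in 2 of 3, and both in 3 of 3 SAMR1-AL samples. Without SAMR1-CR replicate 3 the median was 0.09, with 14 higher and 5 lower, and it was -0.47 without SAMR1-CR replicate 2, -0.36 without SAMR1-AL replicate 1 and -0.12 without SAMR1-AL replicate 3. The list stood at -0.01, 0.37 and -0.69 in SAMR1-CR samples and at -0.07, 0.13 and 0.27 in SAMR1-AL samples. DNA replication genes were lower in 26 of 28, with a median of -0.17 that was -0.02 without SAMR1-CR replicate 3 and -0.29 without SAMR1-CR replicate 2. *Rrm2*, which makes deoxynucleotides, had levels of 0.05, 0.89 and -0.87 in SAMR1-CR samples and of 0.13, 0.90 and 0.77 in SAMR1-AL samples. It was detected in 2 of 3 SAMR1-CR samples and in 3 of 3 SAMR1-AL samples. *Mcm5*, of the replicative helicase, had levels of 0.75, 1.72 and 0.23 in SAMR1-CR samples and of 1.07, 1.40 and 1.68 in SAMR1-AL samples. Replicates 1 and 2 of *Rrm2* lay at nearly the same level in both sera, and SAMR1-CR replicate 3 lay lowest for both genes.

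Heat shock proteins and cytosolic chaperones, which fold proteins, were lower in 21 of 23, with a median of -0.14 that was -0.03 without SAMR1-CR replicate 1, and -0.04 with median centring. None had sera without overlap, beside 2.34% of all genes with CR above and 1.42% with CR below. *Stip1*, which links HSP70 to HSP90, had levels of 3.71, 3.53 and 3.69 in SAMR1-CR samples and of 3.81, 4.66 and 3.66 in SAMR1-AL samples. The difference of -0.40 ± 0.26 came to -0.09 without SAMR1-AL replicate 2, the highest sample, and for *Cct2*, a chaperonin subunit, -0.20 ± 0.19 came to -0.05.

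**Figure D4:**
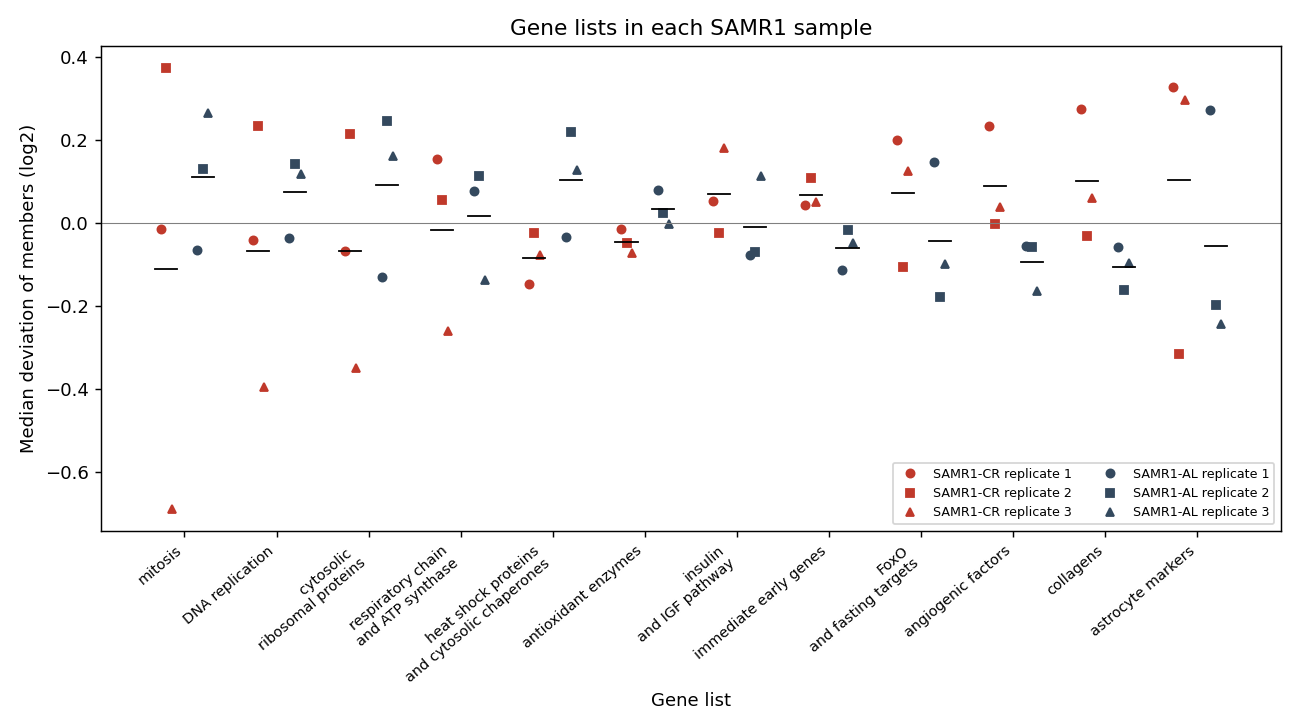
Level of 12 gene lists in each SAMR1 sample, as the median over members of the log2 deviation from the member's mean over the 6 samples; bars are group means. SAMR1-CR replicate 3 lies at -0.69 for mitosis and -0.35 for cytosolic ribosomal proteins, while collagens lie between -0.03 and 0.28 in SAMR1-CR samples and between -0.16 and -0.06 in SAMR1-AL samples.

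Astrocyte markers were detected in the cultures, and their levels varied more between samples than between sera. Of 9 astrocyte markers on the array 7 were detected in all 6 samples, while *Slc1a2*, the main glutamate transporter of mature astrocytes, was detected in none. *Gfap*, the intermediate filament of astrocytes, had levels of 3.20, 1.30 and 2.30 in SAMR1-CR samples and of 2.65, 1.11 and 1.52 in SAMR1-AL samples. Replicate 1 was the highest and replicate 2 the lowest of each serum, and the log2 fold change of 0.50 ± 0.45 lay between 0.04 without SAMR1-CR replicate 1 and 0.99 without SAMR1-CR replicate 2. *Aldoc*, an astrocyte aldolase, differed by 0.31 ± 0.34, and by 0.04 without SAMR1-CR replicate 3. The summed raw intensity of the astrocyte markers, not scaled between arrays, ranged between 16847.8 and 51759.5 in SAMR1-CR samples and between 13316.2 and 50273.9 in SAMR1-AL samples. Replicate 1 of each serum was also the brightest array, with a 90th percentile of intensity of 1033 and 1023, against 500.6 to 653.6 in the others. On the normalized scale the median astrocyte marker stood at 4.49, 4.15 and 4.83 in SAMR1-CR samples and at 4.78, 4.27 and 4.27 in SAMR1-AL samples. For microglia and macrophages the raw sum ranged between 8958.6 and 19254.5 in SAMR1-CR samples and between 8861.4 and 12775.2 in SAMR1-AL samples. On the normalized scale their median log2 fold change was -0.01 over 8 markers, 4 of them higher. *Cx3cr1*, the fractalkine receptor of microglia, stood apart from the other microglial markers. It had levels of 2.10, 1.90 and 2.13 in SAMR1-CR samples and of 0.67, 0.77 and 1.94 in SAMR1-AL samples (0.92 ± 0.29, unadjusted p = 0.0094). SAMR1-AL replicate 3 lay with the SAMR1-CR samples, while the other 7 microglial markers had log2 fold changes between -0.08 and 0.17. The raw sum of neuronal markers ranged between 950.1 and 1368.4 in SAMR1-CR samples and between 843.2 and 1091.8 in SAMR1-AL samples, with 3 of 7 detected on no array.

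In SAMP8 astrocytes the same sera gave other values for several lists, in samples that R1CR-R1AL does not use. No probe passed the serum by strain interaction over all 12 samples (limma with Benjamini-Hochberg adjustment, 0% of 10935 probes, smallest adjusted p 0.965, 479 at an unadjusted p under 0.05). The 479 probes became 814, 1019 and 217 when SAMR1-CR replicate 1, 2 or 3 was left out, and 281 and 966 when SAMR1-AL replicate 2 or 3 was left out, and 1 probe passed in the last of these. The median log2 fold change of cytosolic ribosomal protein genes was -0.20 in SAMR1 and 0.23 in SAMP8. For mitochondrial ribosomal proteins it was -0.09 in SAMR1 and 0.28 in SAMP8, and for the respiratory chain -0.08 in SAMR1 and 0.28 in SAMP8. Collagens stood at 0.26 in SAMR1 and 0.00 in SAMP8, and chaperones at -0.14 in SAMR1 and -0.12 in SAMP8. The difference between the strains was not tested for lists.

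**Figure D5:**
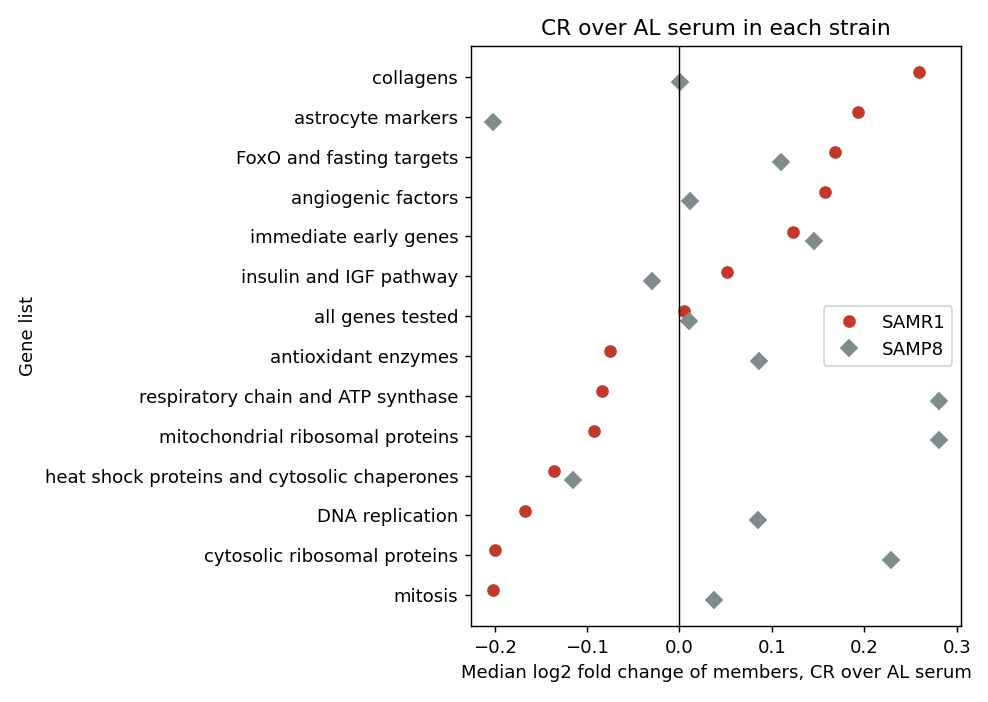
Median log2 fold change, CR over AL serum, of the members of each gene list in SAMR1 (fit of 6 samples) and in SAMP8 (fit of all 12 samples). Ribosomal proteins and the respiratory chain lie below 0 in SAMR1 and between 0.23 and 0.28 in SAMP8, while all genes tested have medians of 0.005 in SAMR1 and 0.01 in SAMP8.

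The 6 genes with the smallest p of the interaction had an adjusted p of 0.965 each in limma, and several rest on probes near the detection limit. *Ski*, a repressor of TGF-beta signalling, was detected in all 12 samples and differed by 0.19 in SAMR1 and -0.48 in SAMP8 on the log2 scale. *Tsc22d1*, a TGF-beta-induced factor, was also detected in all samples by this probe, and differed by 0.56 in SAMR1 and -0.31 in SAMP8. *Olig2*, which specifies oligodendrocytes, differed by 0.09 in SAMR1, where 2 of 3 SAMR1-AL samples were detected, and by -0.55 in SAMP8. *Recql*, a DNA helicase, was detected in 1 of 3 samples of each serum in SAMR1, and differed by -0.42 in SAMP8. *Steap4*, a metalloreductase, was detected in 2 of 3 SAMR1-CR and 0 of 3 SAMR1-AL samples, which gives no fold in SAMR1, and differed by -0.51 in SAMP8. *Tm9sf4*, a membrane protein of endosomes, was detected in 3 of 3 SAMR1-CR and 0 of 3 SAMR1-AL samples, at least 1.13-fold higher with CR serum in SAMR1, and differed by -0.20 in SAMP8. In 4 of the 6 the probe is not the brightest of its gene. The brightest probes of *Recql*, *Steap4*, *Tsc22d1* and *Tm9sf4* differed in SAMP8 by -0.10, -0.42, 0.06 and -0.18, and in SAMR1 by -0.04, -0.05, 0.81 and -0.03 in the same fit. Their unadjusted interaction p in limma was 0.676, 0.0777, 0.199 and 0.563.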

How the data were processed

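Total RNA of 6 SAMR1 cultures, and of 6 SAMP8 cultures for the interaction, was measured on Illumina MouseRef-8 arrays. The authors deposited raw mean bead intensities on a linear scale, without background correction, and a detection p-value per probe against the negative control beads of each array. A second deposited table holds the authors' Z score per array, which was checked against the intensities. Here log2 intensities were Z-normalized per array over all probes, and the result was put back on the log2 scale with 1 common factor, the average SD of the arrays compared. A probe was kept where all arrays of either serum had a detection p under 0.05. The platform annotation gave 1 gene for 20984 of the 24613 probes, several for 1 and none for 3628, and 20968 of the symbols occur in GRCm38.p6. A gene is represented by its brightest kept probe.

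Sera were compared with limma 3.58.1 (lmFit, eBayes with an intensity trend) in R 4.3.3, with p-values adjusted by Benjamini-Hochberg over all kept probes at 0.05. The interaction was fitted on all 12 samples. Figures used Python 3.11.15 with matplotlib 3.10.9. The procedure was tested on simulated data. The methods describe independent experiments. The labels give replicate numbers and letters but do not say whether these stand for experiments or animals. The p-values therefore measure the spread between these samples, which may in part be technical.

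The members and the 47 gene lists were chosen with earlier results of these data known, and lists are given by counts and medians without a test. Genes named are the 10 with the largest difference in each direction at an unadjusted p under 0.05 and without overlap, the 6 in each direction with the smallest p in a fit with the replicate number as a block and 3 same-numbered differences of 1 sign, the 2 members of smallest p in the 12 lists with the largest median and in the ribosomal, respiratory chain, antioxidant and insulin lists, and the 6 of smallest interaction p. *Cx3cr1*, *Cartpt*, *Actb* and the list members given beyond the 2 per list were chosen after their values were seen. A probe detected on no array of a serum gives a bound, taken from the lowest detected signal of each array.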

Additional observations from a re-analysis of the deposited data

How the results depend on the processing

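The count of 0 probes at an adjusted p under 0.05 between SAMR1-CR and SAMR1-AL held in limma under quantile normalization, background correction, median centring, the deposited scores, no filter, a stricter filter, 12 or 10 samples sharing 1 spread, no trend and a robust fit. The 10 samples leave out replicate 1 of SAMR1-AL and replicate 1 of SAMP8-AL. The count ranged from 0 to 1 when 1 sample was left out, and was 1 without both samples of the alike pair, an alternative added after the data were seen. The 1 probe in each case was *Cartpt*, detected in no SAMR1-CR sample, which is kept only where SAMR1-AL replicate 3, in which it was not detected, is left out. *Cartpt* was at least 2.27-fold lower with CR serum without that sample and at least 2.28-fold lower without the alike pair. It was then kept only through the SAMR1-AL samples in which it was high, so its passing is no support for a difference. The methods' Z ratio, a difference of mean Z scores over the SD of all such differences with no p, passed its threshold of 1.5 for 2102 probes, 1282 higher and 820 lower. The methods give this threshold together with a p under 0.05, which was not applied here, so the count is not that of the authors. The cause of the differences between these counts was not tested. The 191 probes at an unadjusted p under 0.05 were 608 of 24613 probes without the filter, 84 of 7450 with the stricter filter, 358 with all 12 samples, 520 with 10 samples, 105 without the trend and 115 without both samples numbered 1, also added after the data were seen. The count for the interaction ranged from 0 to 1 when 1 sample was left out. Samples of the same number had deviations correlated at 0.567, 0.08324 and 0.1237, and the numbers were not taken to pair the samples in the main fit. These samples nevertheless differed by SDs of 0.277, 0.326 and 0.338, below every SD within a serum. Each SE and p between the sera given in the Results is from the unpaired fit. The sample labels also give same-numbered samples a shared letter, A, B or C, without saying what it stands for. With the replicate block, 0 probes passed between the sera (smallest adjusted p 0.1083, 489 at an unadjusted p under 0.05, 429 higher and 60 lower) and 0 for the interaction (smallest adjusted p 0.08465, 908 unadjusted). The block changed the SE of *Pbxip1* from 0.41 to 0.19, of *Mgp* from 0.46 to 0.20 and of *Gfap* from 0.45 to 0.19. For *H2-Ke6* and *Ppp1r14b* the SE was larger with the block, 0.18 against 0.17 each. In limma with the block *Pbxip1* and *Mgp* had unadjusted p of 3.6e-05 and 0.0002, and adjusted p of 0.18 and 0.35. Both were named by their p in that fit. The brightest *Actb* probe had a log2 fold change of 0.35 with all 6 samples and of -0.0669 with the 10 samples, and between -0.0669 (without SAMR1-AL replicate 1) and 0.8592 when 1 sample was left out. Dim genes lie close to the lowest detected signal, where a fold is understated.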

Other observations

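*Cartpt*, which encodes a neuropeptide, was not among the kept probes and was singled out after its values were seen. Its levels were -0.76, -0.66 and -0.77 in SAMR1-CR samples, with 0 of 3 detected, and 0.70, 0.63 and -0.76 in SAMR1-AL samples, with 2 of 3 detected. In SAMP8 they were -0.53, -0.50 and -0.80 with CR serum, with 2 of 3 detected, and -0.85, -0.80 and -0.74 with AL serum, with 0 of 3 detected.

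The 4 probes of *Actb*, cytoplasmic actin, also singled out after their values were seen, did not move together. The brightest had levels of 5.56, 6.28 and 6.06 in SAMR1-CR samples and of 4.79, 5.42 and 6.65 in SAMR1-AL samples. Another had levels of -0.30, 0.79 and 0.84 in SAMR1-CR samples and of 0.22, 6.48 and 0.87 in SAMR1-AL samples. SAMR1-AL replicate 2 was the highest sample in 3 of the 4 probes.

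Lists with small medians included autophagy genes, with 18 of 22 higher and a median log2 fold change of 0.06, and matrix glycoproteins and proteoglycans, with 24 of 31 higher and a median of 0.08. Glycolysis had 10 of 19 higher, with a median of 0.03, and lysosomal genes 17 of 36 higher, with a median of -0.01.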
